A study of Rattus norvegicus with 27 samples.

Results

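The comparison described here set 4 arrays of CA3 total RNA taken after ischemia against 3 arrays of CA3 total RNA from sham-operated controls, 7 of the 27 arrays of the series, chosen by their titles. The 8R group came from male Long Evans rats given 10 min of complete global brain ischemia at normal body temperature, by occlusion of both carotid arteries with hypotension through blood withdrawal, and then 8 h of reperfusion. The NIC (non-ischemic control) group came from male Long Evans rats given a sham operation. CA1 and CA3 were dissected from each hippocampus, and the tissue of 5 rats was pooled for each replicate, so that the spread between arrays is a spread between pools and not between animals. From the post-mitochondrial supernatant of a pool, 20% was extracted as total RNA and the rest was pelleted through sucrose as polysome RNA. Matched CA1 total RNA (4 8R and 3 NIC arrays) and CA3 polysome RNA (4 8R and 3 NIC arrays) are used below only to show where CA3 total RNA differed. RNA was labelled from an equal mass in every sample and read on Affymetrix Rat Gene 2.0 arrays, single-colour arrays on which each probe set gives 1 intensity in arbitrary linear units.

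CA3 is the hippocampal field whose pyramidal neurons receive mossy fibres from the dentate gyrus and project to CA1. After brief global ischemia most CA3 pyramidal neurons are known to survive, whereas many CA1 pyramidal neurons die days later. Reperfused neurons are known to hold back protein synthesis through phosphorylation of the initiation factor eIF2, and unfolded proteins release heat shock factor 1, which switches on chaperone genes.

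The 12716 genes tested were the 70% with the higher mean signal among the 18166 genes that had a probe set with a single gene symbol. Values were compared as log2(intensity + 16), so a fold change is on that scale and understates the change of dim genes. The median intensity of the 7 arrays lay between 31 and 33.7. The median correlation of an array with the others of its group was 0.964 to 0.987 in 8R and 0.981 to 0.984 in NIC, and the median SD of a gene was 0.149 in 8R and 0.104 in NIC (log2). The 8R array of pool 4 stood apart from the others: its median absolute deviation from its group was 0.21, against 0.0873 to 0.144 for the other 8R arrays. In the NIC arrays, 7 of 15 CA3 pyramidal genes were higher and 1 was lower in every CA3 array than in every CA1 array. By the same measure 10 of 11 CA1 pyramidal genes and 4 of 9 dentate granule cell genes were lower in CA3. The share of all genes tested that separated in this way was not counted. Cpne4 and Iyd of the CA3 list overlapped between regions, Cpne4 with 391 to 484 in NIC CA3 and 447 to 464 in NIC CA1. Plagl1, a zinc finger factor gene, had 188, 185, 207 and 147 in 8R CA3 and 187, 210.1 and 186 in NIC CA3, against 18.3 to 39.4 in 8R CA1 and 24.6 to 44.2 in NIC CA1, which sets both CA3 groups apart from CA1.

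In CA3 total RNA, 1805 genes were higher and 170 were lower in 8R than in NIC at an adjusted p below 0.05 (limma, Benjamini-Hochberg over all genes tested), or 14.2% and 1.34% of the genes tested (15.5% together). Most changes were small: the median change was 0.44 among the genes that rose and -0.42 among those that fell (log2), and 37 genes rose and 1 fell by 2-fold or more. The median change of all genes tested was 0.085, and 65.1% of genes lay above 0. The share of calls that were rises was 91.4% on the values as deposited, 79.7% with each array centred on its median (1130 higher, 287 lower) and 59.1% with quantile normalization (1028 higher, 710 lower), so the surplus of rises depended on the scaling. Leaving out every 8R array of pool 4 gave 3713 higher and 649 lower genes, and the total was 976 without NIC replicate 2, 1257 without 8R replicate 1 and 3014 without 8R replicate 4 of the CA3 total RNA arrays. Of 6883 probe sets without a gene symbol 5.2% were called. In bulk tissue, fewer cells of a type and less RNA per cell cannot be told apart.

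**Figure D1:**
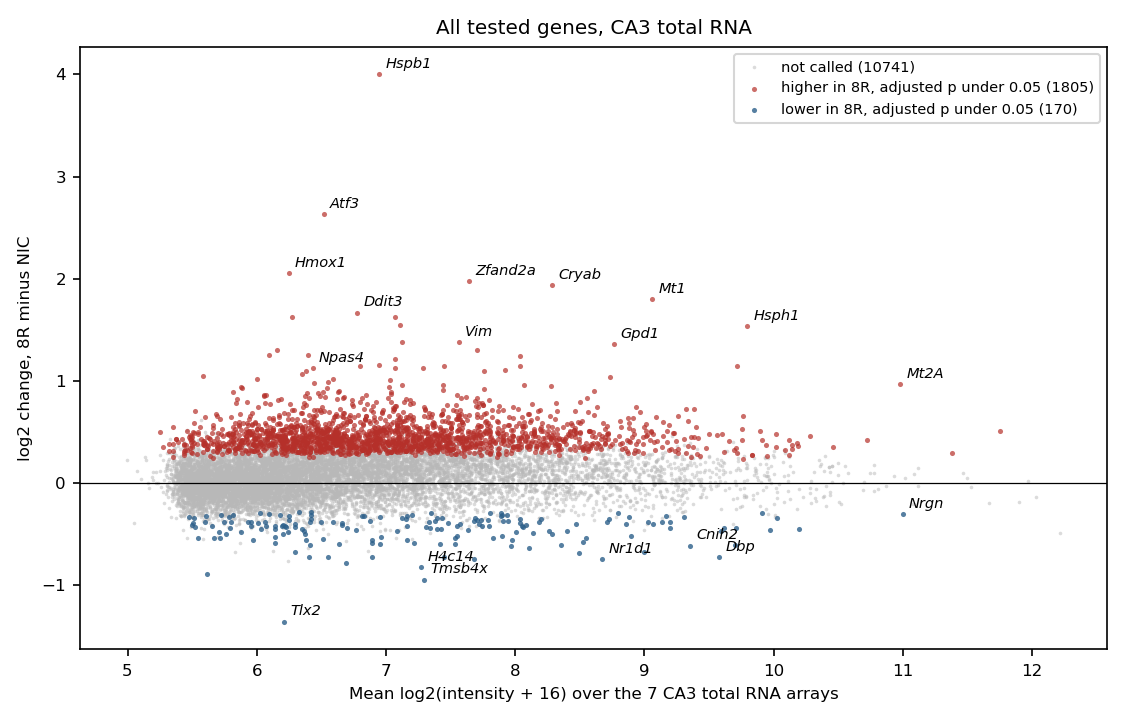
Log2 change between 8R and NIC (8R minus NIC, vertical axis) against the mean log2(intensity + 16) over the 7 CA3 total RNA arrays (horizontal axis), 1 point per gene tested. Red points are the 1805 genes called higher and blue points the 170 genes called lower, and the large changes lie on the side of the rises, from Hspb1 at 4.0 down to Tlx2 at -1.36.

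The 20 largest rises named here are called genes with no overlap between the groups. All 8R arrays lay above every NIC array in 20.2% of the genes tested and below every NIC array in 4.42%. Hspb1, a small heat shock protein that holds unfolded proteins in solution, had 458, 391, 195 and 645 in 8R against 8.57, 8.08 and 11.4 in NIC. The NIC values lay under the offset of 16, so the 16-fold change on the log2 scale (log2 change 4.00 ± 0.312 SE, adjusted p = 7.28e-10) is a compressed one. The 8R array with the lowest value was still far above the highest NIC array.

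Gpd1, the cytosolic glycerol-3-phosphate dehydrogenase that links glycolysis to lipid synthesis, changed with the least spread of the 20. It had 602, 676, 691 and 586 in 8R and 229, 252 and 234 in NIC, a 2.57-fold rise (log2 change 1.36 ± 0.0902 SE, adjusted p = 3.34e-11). Vim, the intermediate filament vimentin of astrocytes and vascular cells, had 284, 239, 252 and 309 in 8R and 81.7, 97.6 and 102.5 in NIC, 2.61-fold. In both genes the 4 8R arrays lay close together.

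Other large rises varied more between pools. Mt1, a metallothionein that binds zinc and copper, had 721, 756, 654 and 1788 in 8R and 251, 225 and 263 in NIC (adjusted p = 0.000155), and Mt1f had 291, 297, 287 and 700 in 8R and 129.7, 154 and 150.3 in NIC. Both metallothionein probe sets were high in every 8R array and far brighter in pool 4 than in the other pools. Sult1a1, a phenol sulfotransferase, went the other way in pool 4, with 188, 195, 270.6 and 95.3 in 8R and 72.6, 64.7 and 64.4 in NIC.

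Srxn1, the sulfiredoxin that repairs oxidised peroxiredoxins, had 217, 200.3, 131 and 249 in 8R and 67.9, 63.1 and 63.1 in NIC (2.61-fold). Rrad, a small GTPase that restrains calcium channels, had 145, 65, 59.8 and 108 in 8R and 31.6, 24.8 and 23.8 in NIC (2.47-fold). Cdr2, a cytoplasmic coiled-coil protein known as an onconeural antigen, had 99.7, 90.1, 46.3 and 112 in 8R and 26.8, 23.2 and 27.1 in NIC (2.39-fold). None of the 3 overlapped between groups, as the rule for naming them required. Over the 20 rises, pool 3 was the lowest of the 8R arrays in 17 genes and pool 4 the highest in 13.

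**Figure D2:**
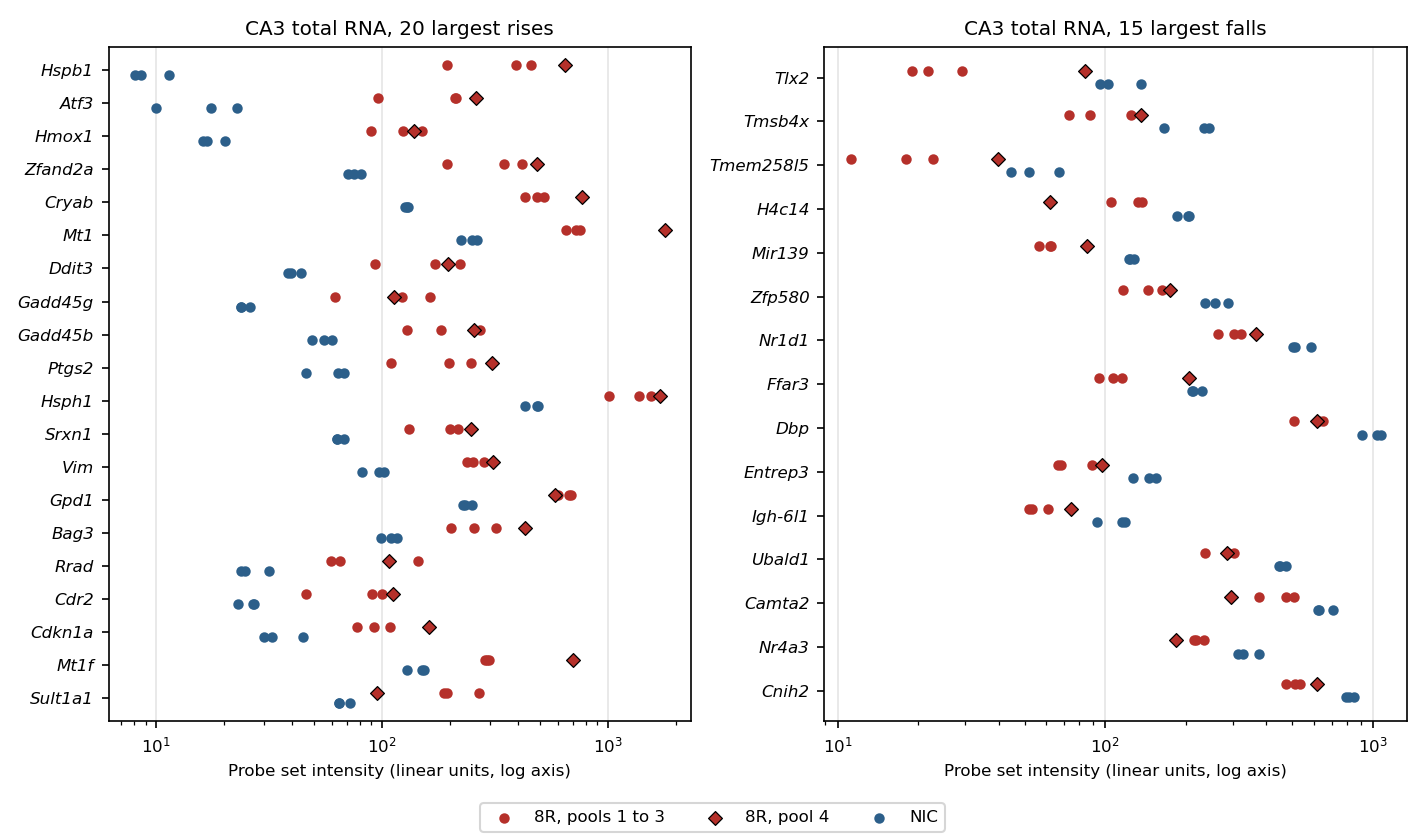
Intensity of each array (log axis, linear intensity units) for the 20 largest rises (left) and the 15 largest falls (right) in CA3 total RNA, with the 4 8R arrays in red above the 3 NIC arrays in blue. The diamond is 8R pool 4, which was the highest 8R array in 13 of the rises and 10 of the falls, and no 8R array crosses a NIC array in any of the 35 genes, as the rule for naming them required.

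The falls were smaller than the rises. Tlx2, a homeobox factor, had 21.8, 19, 29.3 and 83.8 in 8R and 102.7, 95.8 and 136.5 in NIC, the only fall of more than 2-fold (log2 change -1.36 ± 0.235 SE, adjusted p = 0.000227). Tmsb4x, the actin-sequestering peptide thymosin beta 4, had 73.1, 125, 88 and 136 in 8R and 166, 245 and 235 in NIC. The 2 genes had a wide spread inside 8R, and their lack of overlap followed from the rule for naming the falls.

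Dbp, a clock output factor, had 628, 653, 509 and 619 in 8R and 1067, 1033 and 913 in NIC. Nr1d1, the clock repressor REV-ERB alpha, had 264, 322, 302 and 366 in 8R and 501, 589 and 511 in NIC. Camta2, a calmodulin-binding transcription activator, had 375, 473, 508 and 294 in 8R and 622, 707 and 628 in NIC (adjusted p = 0.00659). In each of the 3 the lowest NIC array was above the highest 8R array, as the rule for naming them required.

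Cnih2, an auxiliary subunit that slows AMPA receptor closing, had 473, 532, 510.2 and 616 in 8R and 794, 849 and 811 in NIC (log2 change -0.61 ± 0.123 SE, adjusted p = 0.00102). Ubald1, a gene with a UBA-like domain, had 236, 304, 288 and 286 in 8R and 473, 446 and 451 in NIC. H4c14, a replication-dependent histone H4 gene, had 138, 133, 105 and 62.1 in 8R and 186, 205 and 204 in NIC (adjusted p = 0.0323). H4c14 was the only 1 of the 35 named genes to lose its call under any alternative: it did so on leaving out any of 5 of the 7 arrays, with adjusted p up to 0.107. Zfp580 and Ffar3, a receptor for short-chain fatty acids, were also among the 15, as were Entrep3, Tmem258l5 and Igh-6l1.

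Of the heat shock factor 1 targets and cytosolic chaperones, 29 of 36 tested members rose and none fell, with a median change of 0.62 against 0.085 for all genes. All 5 measured Hsp70 and Hsp110 genes rose, as did 5 of 7 small heat shock proteins and their partner Bag3, 6 of 7 Hsp90 genes and co-chaperones, 5 of 7 Hsp40 genes and 8 of 10 others. The inducible Hspa1a and Hspa1b had no probe set of their own here. Hspa8, the constitutive Hsc70 that refolds proteins in every cell, had 4199, 3857, 3801 and 4136 in 8R and 2753, 2927 and 2721 in NIC. Its rise of 1.43-fold was moderate, with tight, separate groups.

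Hsph1, an Hsp110 that releases nucleotide from Hsp70, had 1551, 1382, 1018 and 1698 in 8R and 431, 484 and 489.7 in NIC (2.90-fold, log2 change 1.54 ± 0.155 SE, adjusted p = 1.95e-07). Dnaja1, an Hsp40 that hands clients to Hsp70, had 1259, 1131, 974 and 1318 in 8R and 515, 517 and 523 in NIC (2.21-fold). Dnajb4, another Hsp40, had 277, 274, 279.8 and 246 in 8R and 142, 125 and 136 in NIC (1.90-fold). The factors themselves moved little: Hsf2 rose by 0.39 (log2), and Hsf1 changed by 0.04 with an adjusted p of 0.861. Cct4, a subunit of the CCT ring that folds actin and tubulin, had 399.6, 365, 348 and 285 in 8R and 199, 205 and 212 in NIC.

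A heat shock element, spelled GAA, any 2 bases, TTC, any 2 bases, GAA, was searched on both strands of RefSeq promoters (GRCr8, 250 bases before to 50 after each start). It was found in 0.798% of all 33469 promoters, in 6 of the 31 heat shock list members with a promoter (19.4%) and in 2 of 10 mitochondrial chaperones and proteases. All 6 of the heat shock members rose, as did 19 of the 25 without it. The 2 mitochondrial members with it rose, as did 3 of the 8 without, and the difference was not tested. The 4 windows shown lie wholly upstream of the start, on the gene's own strand, with the element or its reverse complement in capitals. They are at chr8:50080285-50080329, chr12:10427316-10427360, chr1:163062983-163063027 and chr9:64084246-64084290, in that order, on the minus strand for Serpinh1 and the plus strand for the others.
Hspa8: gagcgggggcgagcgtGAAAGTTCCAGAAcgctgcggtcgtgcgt
Hsph1: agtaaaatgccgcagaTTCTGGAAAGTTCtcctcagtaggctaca
Serpinh1: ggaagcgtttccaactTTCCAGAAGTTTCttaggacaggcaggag
Hspe1: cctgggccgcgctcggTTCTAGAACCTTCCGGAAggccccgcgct
Serpinh1, the collagen chaperone Hsp47, rose 1.71-fold. In Hspe1 the capitals cover 2 overlapping matches, and the same 2 matches lie upstream of its neighbour Hspd1, which is on the opposite strand and is therefore not printed again.

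Of the mitochondrial chaperones and proteases, 7 of 13 rose and none fell (median 0.37), and without pool 4 it was 11. Hspd1, the Hsp60 that folds proteins in the mitochondrial matrix, had 380.2, 377, 281 and 385 in 8R and 174, 148 and 134 in NIC (2.21-fold, adjusted p = 2.61e-06). Its lid Hspe1, or Hsp10, had 658, 618, 521 and 892 in 8R and 415, 418 and 461 in NIC. The proteases Lonp1 (log2 change 0.61) and Clpx (0.57) rose as well, with no overlap between the groups.

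Endoplasmic reticulum chaperones and genes of the unfolded protein response rose in 18 of 26 tested members and fell in none (median 0.37). By role, 12 of 14 chaperones, 4 of 7 degradation genes and 2 of 5 sensors and factors rose, and the difference between roles was not tested. Hspa5, or BiP, the lumenal Hsp70, had 297, 213, 259.7 and 307 in 8R and 147, 137 and 151 in NIC (1.76-fold). Hsp90b1, the lumenal Hsp90, had 183, 146, 171 and 181 in 8R and 88.2, 93.7 and 87.8 in NIC (1.75-fold). Herpud1, which helps draw proteins out for degradation, had 387, 349, 219 and 452 in 8R and 184, 161 and 159 in NIC (1.94-fold). In all 3 the lowest 8R array was above the highest NIC array.

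Genes of the integrated stress response, the programme translated when eIF2 is phosphorylated, rose in 17 of 29 tested members and fell in none (median 0.46), or 9 with quantile normalization. The transcription factor Atf3 had 211, 213, 95.8 and 261 in 8R and 10, 22.8 and 17.6 in NIC. Ppp1r15a, the phosphatase subunit that reverses eIF2 phosphorylation, had 106, 105, 67.3 and 170.5 in 8R and 49.4, 54.3 and 42.4 in NIC (1.91-fold). Chac1, which degrades glutathione, had 178, 163, 99.9 and 296 in 8R and 73, 73.6 and 64.7 in NIC (2.18-fold). Groups did not overlap in these genes, and pool 4 was the highest 8R array in each.

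Not every target rose. Asns, asparagine synthetase, changed by 0.08 (adjusted p = 0.71), Trib3 by -0.21 (adjusted p = 0.452) and Slc7a11, the cystine transporter, by 0.17 (adjusted p = 0.376). Mthfd2, a mitochondrial folate enzyme, had 128, 121, 83.4 and 113 in 8R and 43.7, 49.2 and 49.3 in NIC (1.99-fold). The kinases that phosphorylate eIF2 did not pass the test: Eif2ak3, or PERK, changed by 0.14 (adjusted p = 0.33) and Eif2ak4, or GCN2, by -0.04 (adjusted p = 0.857).

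Of the cytosolic aminoacyl-tRNA synthetases, which load amino acids onto tRNAs, 15 of 19 rose and none fell (median 0.58). Eprs1, for glutamate and proline, had 313, 285, 249.8 and 291 in 8R and 117, 124 and 133 in NIC (2.14-fold, log2 change 1.09 ± 0.168 SE, adjusted p = 5.27e-05). Cars1, for cysteine, had 189.5, 183, 119 and 198 in 8R and 76, 75.3 and 87.3 in NIC (1.95-fold). Wars1, for tryptophan, changed by 0.002 (adjusted p = 0.995) and Vars1, for valine, by 0.06 (adjusted p = 0.761). The rise was thus shared by most but not all of the enzymes.

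The C/EBP-ATF element TGATGNAA, to which ATF4 is known to bind, was found on either strand in 3.98% of all promoters, in 7 of 17 synthetase promoters (41.2%) and in 6 of 28 integrated stress response promoters (21.4%). Of the 7 synthetase genes with a match 6 rose, against 7 of 10 without. Of the 6 integrated stress response genes with a match 3 rose, against 13 of 22 without, and Trib3, Fgf21 and Pck2 were the 3 with a match that were not called. The windows shown lie wholly upstream, on the gene's strand, with the element or its reverse complement in capitals, at chr19:55908354-55908393, chr2:62114806-62114845, chr17:15193653-15193692 and chr3:126795948-126795987 (GRCr8), in that order, on the minus strand for Tars1 and Iars1 and the plus strand for the others.
Aars1: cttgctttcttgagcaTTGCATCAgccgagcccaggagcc
Tars1: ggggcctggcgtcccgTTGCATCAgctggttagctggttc
Iars1: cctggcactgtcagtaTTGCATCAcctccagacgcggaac
Chac1: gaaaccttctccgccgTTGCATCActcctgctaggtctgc
The 4 windows are examples picked from the matches upstream of a start, and all 4 genes were called higher. They carry the same 8 letters, but so do Fgf21 and Mars1, which were not called. Slc7a1, which was called higher, and Trib3 and Pck2, which were not called, have other letters. Aars1, for alanine, had 496, 468, 399 and 418 in 8R and 239.8, 276 and 231 in NIC, and Tars1, for threonine, had 279, 259.9, 212 and 259 in 8R and 136, 128 and 139 in NIC.

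**Figure D3:**
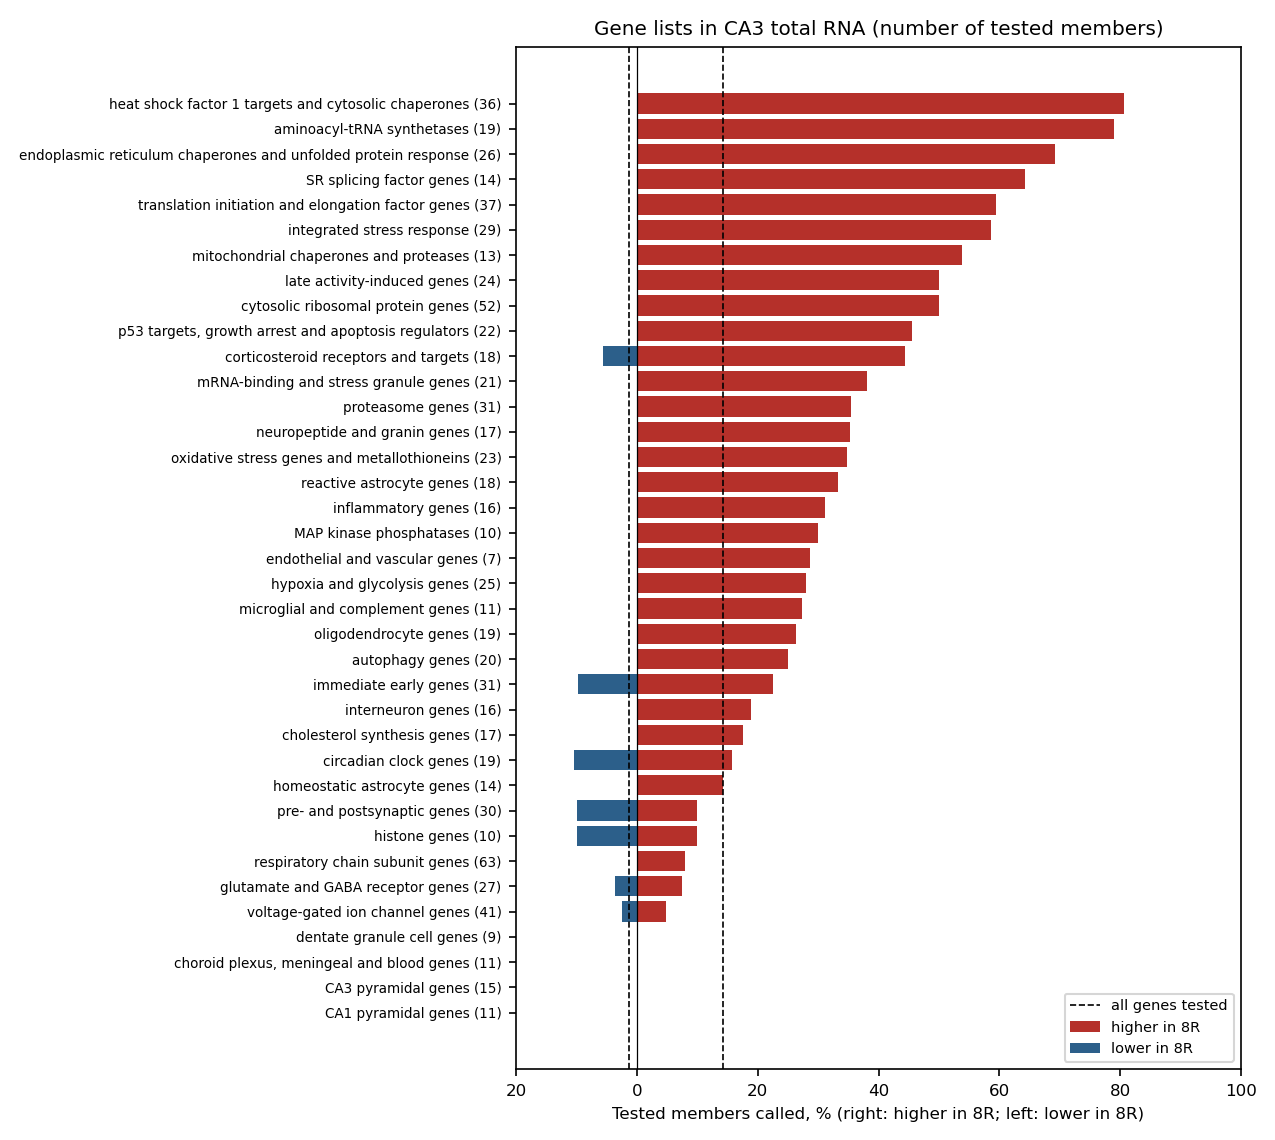
Share of tested members of each of 37 gene lists called higher in 8R (red, to the right) or lower in 8R (blue, to the left) in CA3 total RNA, in %, with the number of tested members after the name. Dashed lines mark the shares over all genes tested, 14.2% higher and 1.34% lower, and the top 2 lists, heat shock genes and aminoacyl-tRNA synthetases, reach 80.6% and 78.9% higher.

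Oxidative stress genes and metallothioneins rose in 8 of 23 members and fell in none (median 0.27), and without pool 4 in 14. Besides Hmox1 and Srxn1 they included Txnrd1, thioredoxin reductase, with 174.5, 189, 156 and 153 in 8R and 97.2, 76.9 and 100.8 in NIC (1.72-fold). Mt2A had 2305, 2554, 2389 and 3598 in 8R and 1317, 1348 and 1409 in NIC, whereas the brain metallothionein Mt3 changed by 0.06 (adjusted p = 0.833). Nqo1, a quinone reductase, had 74.6, 74.1, 69.5 and 42 in 8R and 46, 27 and 40.3 in NIC: its groups overlapped through pool 4.

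Growth arrest and p53 feedback genes rose in 7 of 11 members (63.6%), 1 of 6 pro-apoptotic genes (16.7%) and 2 of 5 anti-apoptotic genes (40%) did. Of all genes tested 14.2% rose, and the difference between the roles was not tested. The tested genes were 11 of 14, 6 of 13 and 5 of 7 of those listed, in that order. The rest lacked a probe set or lay below the filter. The pro-apoptotic and anti-apoptotic counts are too small to set against the 14.2%. Cdkn1a, the cell cycle inhibitor p21, had 92.6, 109, 77.9 and 161 in 8R and 32.7, 29.9 and 44.8 in NIC (2.38-fold). Gadd45a, a damage sensor, had 79.5, 61.6, 56.2 and 52.1 in 8R and 27, 17.3 and 30.7 in NIC (1.92-fold). Mdm2, the ubiquitin ligase for p53, had 145, 156, 138 and 116 in 8R and 80.5, 73.2 and 84 in NIC (1.62-fold). Among the pro-apoptotic genes Bid rose (log2 change 0.34), while Apaf1 (0.01, adjusted p = 0.966) and Casp9 (0.08, adjusted p = 0.694) did not pass.

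Corticosteroid targets rose in 8 of 15 members and fell in none (without the receptors, median 0.40). The list with its receptors had 8 rises, 5 with quantile normalization and 12 without pool 4. Fkbp5, an Hsp90 partner that restrains the glucocorticoid receptor, had 211, 264, 246 and 147 in 8R and 112, 105 and 99.2 in NIC (1.89-fold). The mineralocorticoid receptor Nr3c2 fell by 0.41 (log2, adjusted p = 0.0181), with 195.5, 237, 283 and 191 in 8R and 275, 326 and 308 in NIC, and its groups overlapped. The glucocorticoid receptor Nr3c1 changed by 0.16 (adjusted p = 0.371). Some of these targets, such as Cdkn1a and Ddit4, stand in other lists here as well.

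Of 31 immediate early genes 7 rose and 3 fell (22.6% and 9.68%, against 14.2% and 1.34% of all genes tested). None of the 7 Egr and Nr4a genes rose and 3 fell (42.9%), while 2 of 6 Fos and Jun genes (33.3%) and 5 of 18 others (27.8%) rose. The Egr and Nr4a genes are too few for their lack of rises to be set against 14.2%. The difference between these groups was not tested. Without pool 4 the list had 6 lower genes in place of 3. Nr4a3, an orphan nuclear receptor, had 218, 215, 234 and 185 in 8R and 313, 374 and 327 in NIC (log2 change -0.63 ± 0.088 SE, adjusted p = 1.98e-05). Nr4a2 had 199, 167, 200.5 and 150.4 in 8R and 276, 284 and 241 in NIC, and Egr3 had 96.8, 105, 93.2 and 115 in 8R and 155, 146 and 140.3 in NIC. The 3 falls were free of overlap, and Egr1 (-0.18, adjusted p = 0.536) and Fos (0.28, adjusted p = 0.368) were not called.

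Jun, a partner in the AP-1 dimer, had 539, 447, 397 and 494 in 8R and 269.5, 246 and 251 in NIC (1.78-fold). Npas4, a neuronal factor induced by calcium entry, had 122.5, 46.6, 90.5 and 214 in 8R and 38.2, 37.8 and 41.9 in NIC (adjusted p = 0.0205), and Arc, a synaptic cytoskeletal gene, had 223, 137, 139 and 238 in 8R and 92.1, 117 and 101 in NIC (adjusted p = 0.039). For both, pools 1 and 4 were high and pool 2 came near the NIC range. Of 24 later activity-induced genes 12 rose and none fell, among them Crem, a cyclic AMP-responsive factor, at 0.63 and Lmna, a nuclear lamin, at 0.80 (log2).

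Of 19 clock genes 3 rose and 2 fell (15.8% and 10.5%, against 14.2% and 1.34% of all genes tested). The rises were 5 without pool 4 and 1 with centring. Beside the falls of Dbp and Nr1d1, Rora, the activator that competes with Nr1d1, had 128, 121, 122.5 and 102.3 in 8R and 82.3, 60.5 and 82.1 in NIC (1.49-fold). Clock, Bmal1, Per1, Per2, Cry1 and Cry2 were not called. The clock time of dissection in each group was not given in the sources used here, and its part in the result was not tested.

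Genes of the translation machinery rose in large numbers by small amounts. Of 52 tested cytosolic ribosomal protein genes 26 rose and none fell (median 0.37), 14 with quantile normalization and 16 with centring, and of 37 initiation and elongation factors 22 rose and none fell (median 0.33), 11 with quantile normalization. Rpl4, of the large subunit, had 1165, 1149, 1084 and 985 in 8R and 749, 705 and 842 in NIC (1.42-fold). Eif4a1, the helicase that unwinds messenger leaders, had 653, 637, 564 and 498 in 8R and 385, 359.8 and 443 in NIC (1.46-fold). Ribosomal protein genes have many processed copies in the genome, so a probe set may also read such copies. In these lists pool 4 was the lowest 8R array at the level of the list: its median shift from the NIC mean was 0.17 for ribosomal protein genes, against 0.35 to 0.47 in the other 8R arrays.

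SR splicing factors and their kinases rose in 9 of 14 members (median 0.53). Srsf2 was even across pools, with 219, 222, 217 and 218 in 8R and 129.7, 122 and 130.3 in NIC (1.64-fold, adjusted p = 5.41e-05). Srsf3 had 178, 157, 164 and 129 in 8R and 83.3, 67.3 and 79.7 in NIC (1.86-fold). Clk1, a kinase that phosphorylates SR proteins, had 134, 81, 111 and 81.4 in 8R and 42.9, 43.4 and 59.1 in NIC (1.81-fold). Among messenger-binding genes, Fxr1, a relative of the fragile X protein, rose 1.60-fold and the poly(A)-binding gene Pabpc4 1.55-fold.

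In the proteasome, 11 of 18 regulatory particle genes rose and none of the 13 core particle genes was called. The core genes had a median change of 0.29 and the regulatory genes of 0.36, so the roles differed more in calls than in size, and without pool 4 the list as a whole had 25 calls in place of 11. Psmd12, a lid subunit, had 383, 391, 379.9 and 288 in 8R and 226, 214 and 227 in NIC (1.57-fold). Psmc1, a base ATPase, had 413, 388, 377 and 295 in 8R and 231.5, 219 and 242 in NIC (1.55-fold). Respiratory chain subunits were called in 5 of 63 members (median 0.18), below the 14.2% of all genes, and in 31 without pool 4. Atg12, a ubiquitin-like protein of autophagy, had 248, 240.5, 222 and 237.5 in 8R and 129, 107.5 and 141 in NIC (1.79-fold).

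Hypoxia and glycolysis genes rose in 7 of 25 members and fell in none, or 14 without pool 4 and 4 with centring. P4ha1, a collagen hydroxylase induced by low oxygen, had 123, 97.6, 80.5 and 104 in 8R and 41, 41.3 and 46.7 in NIC (1.97-fold). Vegfa, the endothelial growth factor, had 115, 104.5, 90.8 and 126 in 8R and 65.8, 53.1 and 66.1 in NIC (1.61-fold). Pfkfb3, which makes the activator of phosphofructokinase, had 181, 190.2, 172 and 182 in 8R and 107, 118 and 118 in NIC (1.52-fold). The groups were separate in all 3. Of 16 inflammatory genes tested 5 rose (31.2%, against 14.2% of all genes tested) and none fell. The rises were in 2 of 8 cytokines and chemokines and 3 of 8 receptor, adhesion and feedback genes. Tnf, Il1r1 and Icam1 were not called, and Il1a, Il1b and Il6 lay below the filter. Stat3, the factor downstream of interleukin 6 family receptors, rose 2.18-fold, with 214, 198, 159.9 and 245 in 8R and 80.3, 85.6 and 85.9 in NIC.

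**Figure D4:**
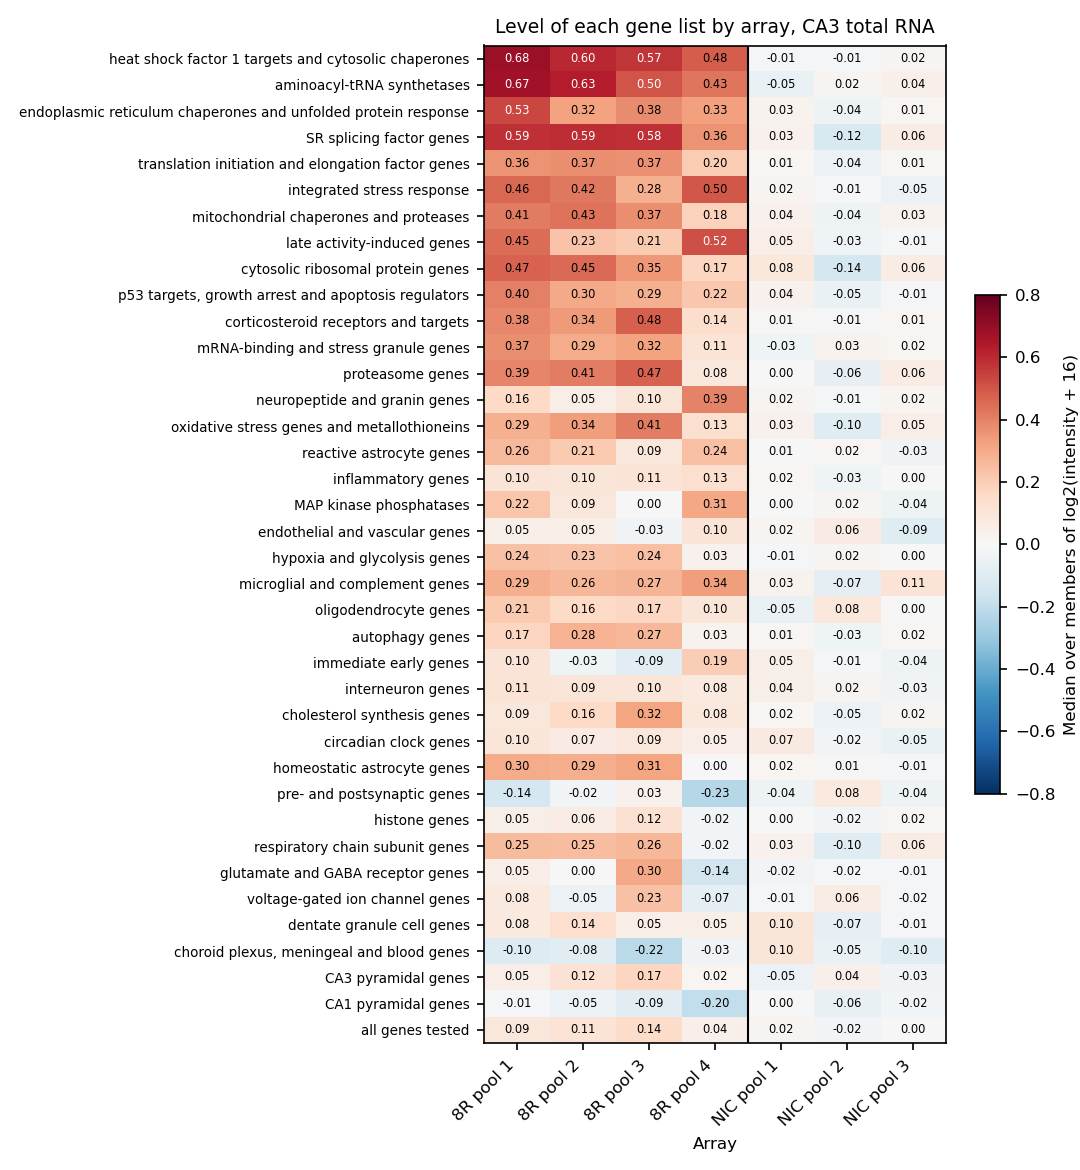
Median over the tested members of each gene list of log2(intensity + 16) minus the NIC mean, for each 8R array (left 4 columns) and NIC array (right 3 columns) of CA3 total RNA. The shift of heat shock genes is 0.48 to 0.68 in all 4 8R arrays, whereas those of the translation, respiratory chain and homeostatic astrocyte lists are smaller in pool 4 than in the other 8R pools. The shift of all genes tested is 0.0416 to 0.145 in the 8R arrays and -0.0199 to 0.0232 in the NIC arrays.

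Markers of cell types were compared to see which of them moved with ischemia. None of 15 CA3 pyramidal, 11 CA1 pyramidal or 9 dentate granule cell genes was called (medians 0.10, -0.11 and 0.05). Without pool 4, 2 CA3 pyramidal genes were called higher. With quantile normalization 1 CA3 and 2 CA1 pyramidal genes were called lower, and the medians were 0.002, -0.22 and -0.08. The summed intensity of the CA3 pyramidal genes was 3186 to 3707 in 8R and 3061 to 3241 in NIC. Summed dentate genes were 1026 to 1044 in pools 1 to 3 and 760 in pool 4, against 860 to 989 in NIC.

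Among glial genes, reactive astrocyte genes rose in 6 of 18 members and none fell. The 6 include Hspb1, which is also counted in the heat shock list. Gfap, the astrocyte filament, had 634, 659.9, 471 and 512 in 8R and 251, 272 and 277 in NIC (2.05-fold, adjusted p = 3.95e-07), and Timp1, a protease inhibitor, had 52.8, 48.4, 29.8 and 75.2 in 8R and 13.3, 19.6 and 14.8 in NIC. Homeostatic astrocyte genes rose in 2 of 14, a share near the 14.2% of all genes, with a summed intensity of 6517 to 7835 in 8R and 6424 to 6475 in NIC, and 10 rose without pool 4, 1 with centring and 0 with quantile normalization. Microglial and complement genes rose in 3 of 11 (summed 595 to 640 in 8R, 433 to 513 in NIC), with C1qb at 0.49 (log2), and in 5 without pool 4.

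Myelin genes rose in 5 of 12 members (41.7%) and oligodendrocyte lineage genes in 0 of 7, where 14.2% of all genes tested rose. The 5 calls became 2 higher and 1 lower with quantile normalization and 3 higher with centring. Mobp, a myelin protein of oligodendrocytes, had 432, 499, 472 and 516 in 8R and 248, 297 and 296 in NIC (1.67-fold). The oligodendrocyte list summed to 3498 to 3976 in 8R and 2959 to 3357 in NIC. Endothelial genes rose in 2 of 7, or 1 with centring or without pool 4 (summed 260 to 285.5 in 8R, 227 to 267 in NIC). The lineage and endothelial counts are too small to set against the 14.2% of all genes. No choroid plexus, meningeal or blood gene of 11 was called (summed 508 to 597 in 8R, 561 to 777 in NIC): Ttr, transthyretin, averaged 73.3 ± 22.2 in 8R and 126 ± 79.1 in NIC. The part of these cell types in the changes above was not tested.

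Of 30 synaptic genes 3 rose and 3 fell (10% each, against 14.2% and 1.34% of all genes), with 1 higher and 10 lower under quantile normalization and 6 higher and 4 lower without pool 4. Vamp2, the vesicle SNARE, had 729.7, 850.4, 776 and 1142 in 8R and 1302, 1113 and 1152 in NIC, and Prrt2, a release regulator, had 248, 319, 301 and 357 in 8R and 466, 441 and 438 in NIC. Nrgn, the calmodulin-binding neurogranin, had 1703, 1932, 1860 and 1929 in 8R and 2241, 2408 and 2224 in NIC. Prrt2 and Nrgn had separate groups and Vamp2 overlapped.

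Syt1, the calcium sensor of release, rose by 0.33 (log2, adjusted p = 0.00585) and Grin1, the obligate NMDA receptor subunit, by 0.50 (adjusted p = 0.00824). Of 27 receptor genes 2 rose and 1 fell, and of 41 voltage-gated channel genes 2 rose and 1 fell, shares below those of all genes for rises. With quantile normalization 0 receptor genes rose and 2 fell, and 1 channel gene rose and 4 fell. Without pool 4 the rises were 5 and 4. Scg5, a chaperone of prohormone convertase 2, led 6 of 17 neuropeptide and granin genes that rose, with 443, 365, 392 and 385 in 8R and 183, 194 and 216 in NIC (1.93-fold). That list had 3 higher and 1 lower with quantile normalization, and 6 higher and 3 lower without pool 4.

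Probe sets that carry the name of a miRNA gene were looked at because Mir139 stood among the largest falls, so this group was chosen after its values were seen. Of 83 such probe sets above the filter 3 were higher and 9 lower in 8R, where 14.2% and 1.34% of all genes tested were, and which part of the transcript each probe set reads was not given in the sources used here. Mir139 had 62.8, 56.5, 61.9 and 85.7 in 8R and 124, 122 and 128 in NIC (log2 change -0.78 ± 0.153 SE, adjusted p = 0.000785). Mir138-2 had 111, 84.2, 98.5 and 134 in 8R and 151, 171 and 169 in NIC, and Mir22 was 1 of the 3 that rose (log2 change 0.67, adjusted p = 0.000317). The 6 mature sequences of these 3 genes are shown from RefSeq (GRCr8), 5′ to 3′, with the seed (bases 2 to 8) in capitals, to identify the genes named. The probe sets may read other parts of the transcripts.
miR-139-5p: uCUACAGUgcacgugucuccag
miR-139-3p: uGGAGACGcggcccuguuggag
miR-138-5p: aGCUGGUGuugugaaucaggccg
miR-138-2-3p: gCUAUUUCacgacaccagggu
miR-22-5p: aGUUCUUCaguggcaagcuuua
miR-22-3p: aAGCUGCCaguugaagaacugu
No seed is shared among these 6 sequences.

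CA1 total RNA of the same treatment had 2561 higher and 782 lower genes (20.1% and 6.15%, 26.3% together, with controls of its own). Of the genes that rose in CA3, 1474 also rose in CA1 (81.7% of the CA3 rises and 57.6% of the CA1 rises), and of those that fell 123 also fell (72.4% and 15.7%). No gene was called in opposite directions. In a test of the difference itself, the change in CA3 minus the change in CA1, 3 genes passed (0.0236% of the genes tested), all smaller rises in CA3, and 663 genes had an unadjusted p below 0.05 (limma).

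Rgs2, which speeds the shut-off of Gq signalling, had 275.5, 226, 204 and 206 in 8R CA3 and 126, 108 and 119 in NIC CA3. In CA1 it had 541, 628, 406 and 489 in 8R and 89.3, 83.3 and 86.1 in NIC. The rise was 0.86 in CA3 and 2.36 in CA1, a difference of -1.50 (log2, adjusted p = 3.14e-05) that passed under all 19 alternatives that could test it. Hspd1 rose by 1.14 in CA3 and 2.18 in CA1, with 619, 515, 446 and 639 in 8R CA1 and 117, 95.6 and 114 in NIC CA1. Its difference of -1.04 (adjusted p = 0.0424) lost the call in 9 of the 19, up to an adjusted p of 0.346 when the 2 Hspd1 probe sets were averaged. Pnrc2, a coactivator that also serves in messenger decay, rose by 0.75 in CA3 and 1.60 in CA1, and its difference of -0.84 (adjusted p = 0.0381) lost the call in 5 of the 19.

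With the pool as a random block, the difference between regions passed for 16 genes, 3 with the CA3 change above the CA1 change and 13 below. This block treats CA1 and CA3 pools of 1 number as the same rats, which the labels do not state. Deviations from the group mean correlated between same-numbered CA1 and CA3 total RNA arrays at 0.124 to 0.54 in 8R (-0.378 to 0.225 for other numbers). In NIC they did so at 0.00317 to 0.0991 (-0.151 to 0.0998 for other numbers). The block applies 1 correlation, 0.268, to both conditions. Among the 13, Lox, lysyl oxidase, had 17.5, 13.1, 8.43 and 15.7 in 8R CA3 and 27.9, 19.8 and 21 in NIC CA3, but 158, 78, 54.6 and 290.2 in 8R CA1 and 16.4, 20.3 and 13.7 in NIC CA1. Inhba, the activin A subunit, had 74.2, 77.1, 52.4 and 81.8 in 8R CA3 and 29.2, 31.1 and 44.7 in NIC CA3, and in CA1 198, 111, 122 and 269.8 in 8R and 28.9, 30.2 and 26.5 in NIC. In CA3 the Lox values of both groups lay near the offset of 16, so their order is not read as a fall. Inhba was higher in 8R in both regions.

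The 3 genes above CA1 were Nr4a1, Nr4a3 and Duox2. Nr4a3 fell by 0.63 in CA3 and by 1.25 in CA1 (log2), a difference of 0.62 that passed with the block (adjusted p = 0.00489). Duox2, a hydrogen peroxide-forming oxidase, had 68.5, 57.9, 69.9 and 85.6 in 8R CA3 and 24, 45.5 and 27.6 in NIC CA3, against 21.7, 33.2, 28.8 and 27.8 in 8R CA1 and 22.6, 38.2 and 25.7 in NIC CA1. Only in CA3 did its 8R arrays lie above the NIC arrays. For most of the largest rises the interval of the difference spans 0 and is wide: for Hspb1 it ran from -0.90 to 0.91 (log2).

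**Figure D5:**
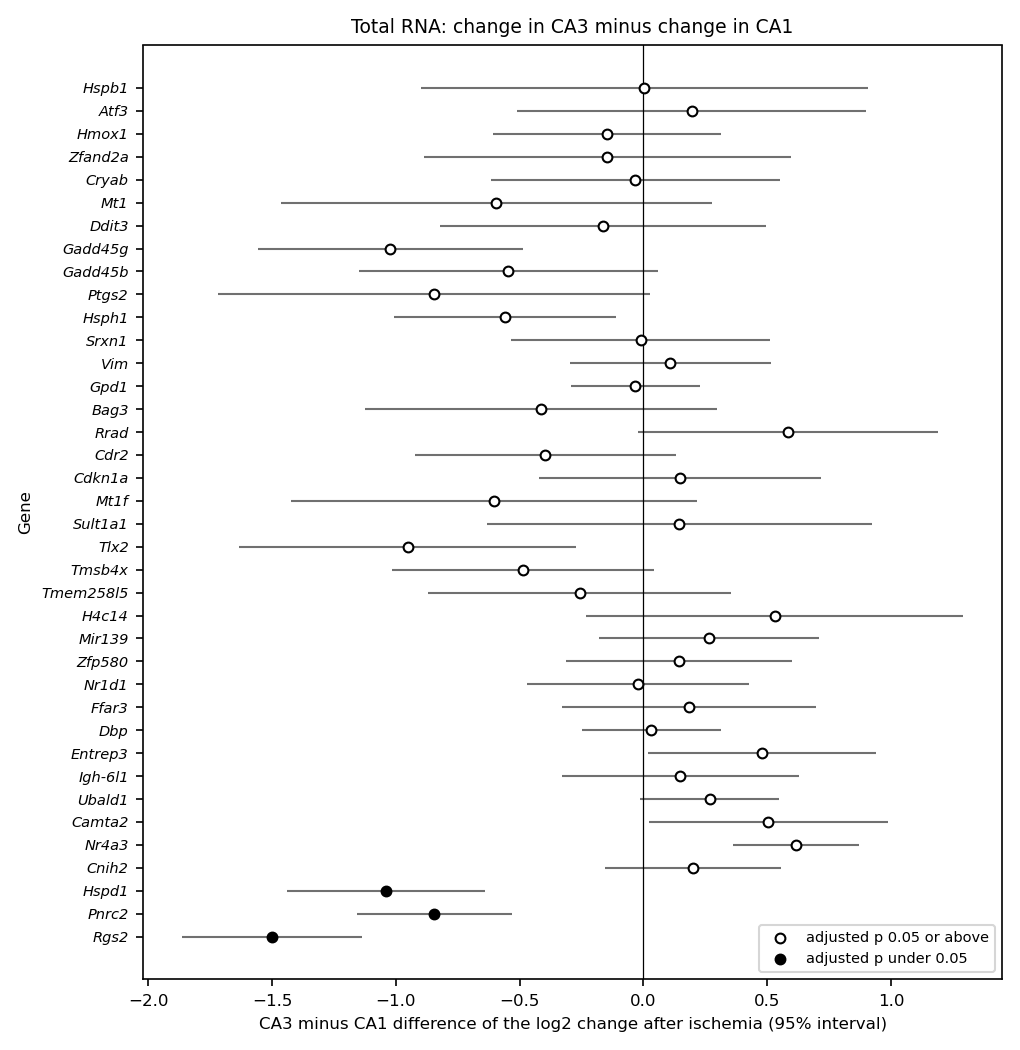
Change in CA3 minus change in CA1 (8R against NIC, total RNA, log2) with its 95% interval for the 20 largest rises, the 15 largest falls and the genes whose difference passed. Filled points passed the test of the difference: Rgs2 at -1.50, Hspd1 at -1.04 and Pnrc2 at -0.84, and the intervals of most others include 0.

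In CA3 polysome RNA, 303 genes were higher and 35 lower in 8R than in NIC (2.38% and 0.275%, 2.66% together). Of the 1805 genes that rose in total RNA, 132 rose there too. Among the 15 largest falls in total RNA, only Dbp and Nr4a3 were also called lower in polysome RNA. For none of the 15 did the polysome change differ from the total RNA change at an adjusted p below 0.05 (limma, lowest 0.0582). The change in polysome RNA minus the change in total RNA passed for 21 genes, 7 positive and 14 negative (0.055% and 0.11%, 0.165% together), with 2622 genes at an unadjusted p below 0.05 (limma). Total and polysome RNA of a pool came from the same supernatant, and with the pool as a random block 1356 genes passed, 450 positive and 906 negative.

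Scg5, which rose in total RNA, had 305, 317, 342 and 243 in 8R polysomes and 317, 305 and 345 in NIC polysomes. Its total RNA rose by 0.95 and its polysome RNA changed by -0.10, a difference of -1.05 (adjusted p = 0.00871). Srsf2 rose by 0.71 in total RNA and changed by -0.14 in polysome RNA, with 266, 317, 238 and 205 in 8R polysomes and 279, 266 and 298 in NIC polysomes. Pdia6, a disulfide isomerase, rose by 0.72 and changed by -0.21. In these 3 genes the total RNA groups were apart and the polysome groups were not.

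Jak2, a cytokine receptor kinase, had 139, 134, 131 and 128 in 8R total RNA and 65.1, 58.3 and 75.3 in NIC total RNA, but 129, 141, 98 and 119 in 8R polysomes and 120.4, 101 and 116 in NIC polysomes. In the other direction, Polm, a DNA repair polymerase, had 59.9, 68.9, 77.2 and 68.9 in 8R polysomes and 33.6, 26.9 and 27.9 in NIC polysomes, and its total RNA changed by -0.18 (adjusted p = 0.379). Of the 36 heat shock members 12 rose in polysome RNA, and Hspb1 rose by 3.68 there (log2, adjusted p = 5.62e-09). The ribosomal protein list had 3 of 52 members higher in polysome RNA and the SR list 0 of 14, against 2.38% of all genes. Neither count was tested against that share.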

How the data were processed

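The data are probe set intensities from 27 Affymetrix Rat Gene 2.0 arrays. The deposited intensity values are on a linear scale, and PLIER and Affymetrix Expression Console are named in the submitters' processing notes without versions; scaling between arrays was not given in the sources used here. Of 36685 probe sets, 18511 had 1 gene symbol in the platform annotation, 575 several and 17599 none, and 18394 of the 18511 matched RefSeq. For each of 18166 genes the brightest probe set was kept (291 genes had several), log2(intensity + 16) was taken, and genes below the 30th percentile of the mean over all arrays were left out. All 27 arrays entered 1 limma fit (3.58.1, R 4.3.3) with 8 group means and an intensity trend, tested two-sided with Benjamini-Hochberg adjustment over 12716 genes. The number of arrays limits the precision. The scripts were tested on simulated data. Members, 37 gene lists and tests were chosen with earlier results of these data known. Named genes are the 20 largest rises and 15 largest falls among called genes with non-overlapping groups and a gene name, up to 6 called members per list, and up to 8 genes per direction for each difference of changes. Replicate numbers did not pair NIC with 8R (correlations of same-numbered deviations 0.00764 to 0.122), but total and polysome RNA share a supernatant; same-numbered CA3 arrays of both fractions correlated at 0.284 to 0.772 in 8R (-0.623 to 0.471 for other numbers) and at -0.0372 to 0.0305 in NIC.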

Additional observations from a re-analysis of the deposited data

Results flagged for a closer look

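Single arrays that lay far from the other 8R arrays were sought with Dixon's criterion in the 4 8R arrays of 173 named genes, where chance alone gives about 1 in 20. It picked out 18 genes, 13 of them in pool 4 and 3 in pool 3. In pool 4 the intensity was high for Mt1 (1788) and Mt1f (700), and low for Nqo1 (41.95), Ddit4 (142.9), Pgk1 (576.7), Tspan2 (140), Rpl18 (635.6), Eif3m (224.4), Ndufb6 (194.7), Psmd12 (288), Psmc5 (253.1), Atg5 (65.28) and Hnrnpd (362.3). In pool 3 it was low for Hspd1 (280.9), Cars1 (119.2) and Eif2s2 (266.6). In pool 2 it was low for S100a10 (81.54) and high for Insig1 (96.85). Pool 4 also lay apart in the median shift from NIC of 5 of 38 lists (all genes tested counted as 1 list): hypoxia and glycolysis 0.0331, homeostatic astrocyte -0.00403, translation factors 0.204, respiratory chain -0.0203 and SR splicing factors 0.362.

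The change differed between regions, CA3 minus CA1, for Rgs2 (-1.50), Hspd1 (-1.04) and Pnrc2 (-0.84), by the test of the difference. The change differed between fractions, polysome minus total, for Scg5 (-1.05), Lrpap1 (-0.96), Pdia6 (-0.93), Crtac1 (-0.87), Srsf2 (-0.85), Cd59b (-0.78), Lrrfip1 (-0.77) and Jak2 (-0.76), and in the other direction for Polm (1.08), Pate6l (1.01), Ahrr (0.99), Rpl23al1 (0.94), Fancd2osl1 (0.91), Trpm4 (0.83) and Efna5 (0.73), all on the log2 scale. In total RNA Polm, Pate6l and Rpl23al1 were not called (adjusted p = 0.379, 0.0512 and 0.351, limma).

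Probe sets with no gene symbol took no part in the comparisons. Of 17599, 6883 passed the same filter, and 305 were higher and 53 lower in 8R, 5.2% in all, of which 26 rose and 9 fell by 2-fold or more.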

How the results depend on the processing

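The replicate block moved the counts. With the replicate number as a fixed term 3713 genes were called (3150 higher, 563 lower), 11 for the difference between regions and 797 for that between fractions. That term joins NIC and 8R arrays of the same number, although they are separate pools. Replicate 4 exists only in 8R, so its term comes from 8R arrays alone. In 8R CA1 polysome RNA, replicates 2 and 3 are pools 3 and 4. With the pool as a random block (correlation 0.268) the counts were 2113, 16 and 1356. Array weights gave 4746 (3902 higher, 844 lower), 22 and 2206, with 457 list members. Leaving out every 8R array of pool 4 gave 4362 (3713 higher, 649 lower), 15 and 1258, with 421 list members. Leaving out 1 array at a time gave 976 to 3014 calls (894 to 2658 higher, 82 to 356 lower), 172 to 328 list members, 1 to 7 genes for regions and 8 to 1024 for fractions: the count was 976 without NIC replicate 2, 1257 without 8R replicate 1 and 3014 without 8R replicate 4. Quantile normalization gave 1028 higher and 710 lower, and centring 1130 and 287. For the fraction difference, no filter gave 34 and centring 33. No result changed its sign, list medians apart: 6 of the 37 changed sign with quantile normalization, 2 with centring and 1 without pool 4, and the cause was not tested. Pseudocounts of 4 and 64 (2010 and 1886), no filter (1787), a filter at the 50th percentile (1937), the 7 arrays alone (1734), no intensity trend (1978) and averaged probe sets (1984) kept the total within 1.5 times. Pools of 5 rats, 4 and 3 a group, set the precision.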
